A study of Mus musculus with 2 samples.

Results

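Triglyceride is the neutral fat that cells store in lipid droplets, and 10 mouse genes of its synthesis, storage and breakdown were examined: Mogat1, Mogat2, Dgat1, Dgat2, Lpin1, Lpin2, Plin2, Pnpla2, Lipe and Mgll. Every non-control array spot that carries one of these gene names was taken, which gave 27 probes of 41174 on the array and 10 genes of 27337. The members were chosen by name with their log2 differences between these arrays already in view, so their values describe 2 arrays and test nothing.

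The study compared leukemia-initiating cells, the leukaemia cells able to start the disease again, of Jam3-null and of wild-type (WT) genotype. Jam3 encodes a junctional adhesion molecule of the cell surface. Both groups came from mice with acute myeloid leukaemia carrying the MLL-AF9 fusion together with YFP, and both were sorted from the bone marrow of female mice as cells positive for YFP, for Mac-1 and for c-Kit. The labels name 3 mice for each sample, and each genotype was measured on 1 one-colour Agilent array. How the Jam3 allele was made, the age of the mice and how RNA of the mice was combined are not given in the sources used here. MLL-AF9 and YFP mark both groups alike, so neither group was sorted as normal marrow cells.

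Triglyceride is built by adding a fatty acid to diacylglycerol, and the last step is made by the DGAT enzymes. Diacylglycerol comes from phosphatidic acid through the lipins, or from monoacylglycerol through the MOGAT enzymes, the route best known from the absorbing cells of the intestine. The stored fat is coated by perilipins and is taken apart in order by ATGL, hormone-sensitive lipase and monoacylglycerol lipase, the products of Pnpla2, Lipe and Mgll. In white blood cells, lipid droplets also hold fatty acids from which inflammatory lipid mediators are made.

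Sequences of some of the probes are shown first, because each gene is seen only through short oligonucleotides. The probes are 60 bases long and are printed 5′ to 3′ as in the array files, with mm9 coordinates and the strand of the gene. An mm9 annotation was not used here, so exon and UTR positions are not given. A probe whose mapped range is longer than the probe covers an exon junction and spans the intron between. For Mogat2, Mgll and Pnpla2, a 30-base stretch of the brightest probe is shown, with the letters AATAAA, those of the common polyadenylation signal, in capitals. Mogat2 and Mgll had the largest differences, and Pnpla2 is set beside them as a member within 2-fold.
Mogat2, within the probe at chr7:106367601-106367660 (-): acatgttacctcAATAAAtgaaaggagtct
Mgll, within the probe at chr6:88778286-88778345 (+): ctacagctcaccgtAATAAAaaccacgtgc
Pnpla2, within the probe at chr7:148645930-148645989 (+): caaagcagatctAATAAAagccacagctca

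Whole probes are shown for those of Mogat2, Mgll and Dgat1 that span an intron, because their sequence is that of spliced RNA.
Mogat2, chr7:106375119-106381004 (-): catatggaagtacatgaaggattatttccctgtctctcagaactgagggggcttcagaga
Mgll, chr6:88773375-88775678 (+): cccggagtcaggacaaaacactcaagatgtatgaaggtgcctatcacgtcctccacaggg
Dgat1, chr15:76333128-76333274 (-): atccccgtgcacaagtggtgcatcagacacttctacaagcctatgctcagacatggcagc
Dgat1, chr15:76333491-76333707 (-): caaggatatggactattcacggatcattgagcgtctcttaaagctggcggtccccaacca

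Of the 27 probes, 6 spanned an intron and 4 held AATAAA on the printed strand (14.8%, against 4.78% of all probes on the array). Their GC content lay between 35% and 55%. The longest run of bases shared by probes of different member genes was 11 bases over 322 pairs. Within a gene, 1 pair of Lpin1 probes shared 40 bases and is close to 1 measurement.

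Signals below are the processed signal of the scanner software, a background-subtracted brightness on a linear scale. A log2 difference is Jam3-null minus WT after each array was scaled to its own 75th percentile (667.8 for Jam3-null, 713.9 for WT), and its error (±) is the SD that the scanner's error model gives. This error covers the measurement of a spot and not the spread between mice. A gene was measured when both arrays had its brightest probe well above background, and a difference was called from 2-fold upward. With 1 array per genotype there is no spread between samples, and no p-value is given. In RNA of a bulk sort, fewer cells of a type and less RNA per cell cannot be told apart.

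Jam3 itself gave no check of the labels: its 2 probes had signals of 28.1 and 5.40 in Jam3-null cells, against 5.09 and 3.23 in WT cells, none of them well above background. Of 27337 genes, 14361 were measured on both arrays, with a median log2 difference of -0.07. In Jam3-null cells 10.3% of them were higher by 2-fold or more and 8.59% were lower by as much. Of the spots, 55.0% were well above background with Jam3-null RNA, against 61.8% with WT RNA. The genes of the sort and of the leukaemia were seen on both arrays, with log2 differences of 3.71 for Itgam, the Mac-1 chain, 0.09 for Kit, 0.61 for Ptprc, 0.73 for Hoxa9 and 0.81 for Meis1.

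Of the 10 member genes, 9 were measured on both arrays. At least 2-fold higher on the Jam3-null array were 5 of them (Mogat2, Mgll, Dgat2, Dgat1 and Lpin2), 0 were at least 2-fold lower and 4 lay within 2-fold (Lipe, Plin2, Lpin1 and Pnpla2). These 5 are 55.6% of the measured members, beside 10.3% of all genes measured, and 0 beside 8.59%. At 1.5-fold the members counted 6 and 0, beside 18.4% of all genes higher and 20.3% lower, and at 3-fold 4 and 0, beside 4.94% and 2.93%. The members were chosen with this contrast in view, and nothing is read from the shares. The median of the 9 log2 differences was 1.11. Mogat2, both DGAT genes, Lpin2 and the last lipase were on the high side, while the droplet coat gene and the first lipase differed by less than 1.5-fold at their brightest probes.

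**Figure D1:**
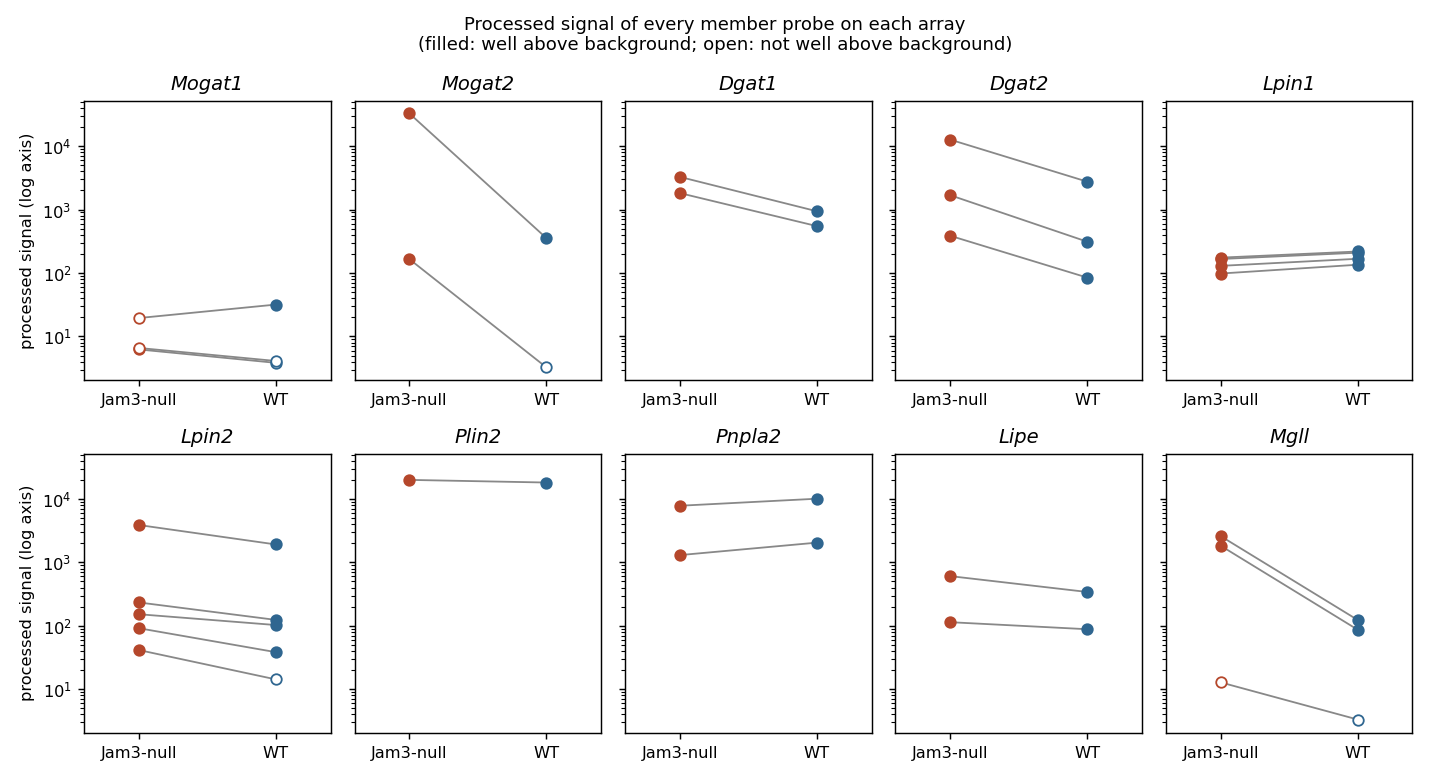
Processed signal (log axis) of each of the 27 probes of the 10 genes on the Jam3-null array (left) and the WT array (right), with a line joining the same probe. Filled points were well above background and open points were not. The lines of Mogat2, Mgll, Dgat1, Dgat2 and Lpin2 are all higher at Jam3-null, those of Lpin1 and Pnpla2 are lower, and the Plin2 line is nearly level (19971 and 18145).

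Mogat2, which makes diacylglycerol from monoacylglycerol, had the largest difference of the group. Its brightest probe, at chr7:106367601-106367660, had a signal of 32699 in Jam3-null cells, against 354 in WT cells. The log2 difference was 6.62 ± 0.20, a 98.6-fold higher signal, and 8 of the 14361 genes measured lay above it. After normexp background correction, which lifts dim signals, it was 80.6-fold (log2 6.33). Both arrays saw this probe well above background.

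The other Mogat2 probe, at chr7:106375119-106381004, covers an exon junction of an Ensembl transcript. It had a signal of 165 in Jam3-null cells, against 3.25 in WT cells, where it was not well above background. Set against the dimmest signal that cleared background on the WT array, it was at least 11.4-fold higher on the Jam3-null array, and at least 3.55-fold after normexp correction. Levels of different probes are not comparable, so the 2 probes share only their direction.

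Mogat1, the close relative of Mogat2, stayed near background. Its probe at chr1:78534646-78534705 had a signal of 19.5 on the Jam3-null array, where it did not clear background, against 31.8 on the WT array, where it did. This made it at least 1.15-fold lower in Jam3-null cells, and normexp correction left no bound. The probes at chr1:78525761-78525820 and chr1:78534556-78534615 had 6.24 and 6.58 on the Jam3-null array, against 3.83 and 4.10 on the WT array, none well above background. Mogat1 is therefore the member without a measured difference.

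Dgat2, one of the 2 enzymes that complete triglyceride, was higher with all 3 of its probes. The brightest, at chr7:106302215-106302274, had a signal of 12651 in Jam3-null cells, against 2753 in WT cells, a log2 difference of 2.30 ± 0.20 (4.91-fold). The probe at chr7:106302971-106303030 had 1683 in Jam3-null cells, against 311 in WT cells (5.78-fold). The dimmest, at chr7:106303052-106303111, had 386 in Jam3-null cells, against 84.6 in WT cells (4.88-fold). The log2 differences of the 3 probes lay between 2.29 and 2.53. After normexp correction the dimmest was at 1.73 (3.31-fold) and the others were both at 2.23.

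Dgat1, the other enzyme of this last step and unrelated to Dgat2 in sequence, was higher as well. Its probe at chr15:76333128-76333274 had a signal of 3273 in Jam3-null cells, against 941 in WT cells, a log2 difference of 1.89 ± 0.20 (3.72-fold). The probe at chr15:76333491-76333707 had 1818 in Jam3-null cells, against 549 in WT cells, 1.82 in log2 (3.54-fold). Both Dgat1 probes span introns, and their log2 differences were 0.070 apart. After normexp correction they were at 1.81 and 1.69. Among the 14361 genes in order of difference, Dgat2 stood at place 364 and Dgat1 at place 516.

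Lpin2, a lipin phosphatase that turns phosphatidic acid into diacylglycerol, was called by a small margin. The brightest of its 5 probes, at chr17:71598998-71599057, had a signal of 3879 in Jam3-null cells, against 1915 in WT cells, a log2 difference of 1.11 ± 0.20 (2.17-fold). The probe at chr17:71589485-71589544 had 233 in Jam3-null cells, against 124 in WT cells, 2.01-fold, or 1.72-fold after normexp correction. The probe that spans an intron, at chr17:71595823-71596189, had 152 in Jam3-null cells, against 103 in WT cells. It stayed under 2-fold (1.58-fold, or 1.35-fold after normexp correction). All Lpin2 probes were higher on the Jam3-null array.

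The probe at chr17:71556267-71556326 had a signal of 91.6 in Jam3-null cells, against 38.4 in WT cells, 2.55-fold, or 1.67-fold after normexp correction. At chr17:71564562-71564621 the signal was 41.5 in Jam3-null cells, against 14.3 in WT cells, where it was not well above background. This gave a bound of at least 2.87-fold higher, or at least 1.46-fold after normexp correction. These 2 probes and the one at chr17:71589485-71589544 were designed on separate cDNA clones, not on a RefSeq transcript.

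Lpin1, the lipin best known from fat tissue, did not share the direction of Lpin2. Its 4 probes had signals between 98.1 and 175 in Jam3-null cells, against 135 to 218 in WT cells. Their log2 differences lay between -0.36 and -0.23, with -0.23 ± 0.21 for the brightest, at chr12:16543315-16543373. In size that value is close to the error-model SD and above the median SD of 0.087 over other probes printed in repeat spots. Each probe was within 1.3-fold. Lpin3, the remaining lipin gene, did not clear background on either array.

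Plin2, which encodes the perilipin that coats droplets in most cells outside fat tissue, was bright on both arrays. Its single probe, at chr4:86302676-86302735, had a signal of 19971 in Jam3-null cells, against 18145 in WT cells. The log2 difference was 0.23 ± 0.20 (1.18-fold), and 0.44 after cyclic loess scaling. The difference was about as large as the error-model SD, and above the median SD of 0.087 over other probes printed in repeat spots.

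Pnpla2, whose product ATGL removes the first fatty acid of triglyceride, was within 2-fold. Its probe at chr7:148645930-148645989 had a signal of 7813 in Jam3-null cells, against 10085 in WT cells, a log2 difference of -0.27 ± 0.20 (1.21-fold lower). The probe at chr7:148645100-148645159 had 1303 in Jam3-null cells, against 2047 in WT cells, -0.56 in log2 (1.47-fold lower). Both probes were on the low side at Jam3-null.

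Lipe, the hormone-sensitive lipase that acts on diacylglycerol, lay just under the 2-fold line. The probe that spans an intron, at chr7:26165974-26168227, had a signal of 607 in Jam3-null cells, against 342 in WT cells, a log2 difference of 0.93 ± 0.21 (1.90-fold). The dimmer probe, at chr7:26165828-26165887, had 114 in Jam3-null cells, against 88.4 in WT cells (1.38-fold). The mean over both probes was 0.70 in log2, so Lipe remained under 2-fold either way.

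Mgll, the lipase that frees the last fatty acid and also degrades the endocannabinoid 2-arachidonoylglycerol, came next after Mogat2 in size. Its brightest probe, at chr6:88778286-88778345, had a signal of 2593 in Jam3-null cells, against 124 in WT cells. The log2 difference was 4.48 ± 0.21, a 22.4-fold higher signal at place 58 of 14361 genes, and 15.2-fold after normexp correction (log2 3.93). The probe across an exon junction, at chr6:88773375-88775678, had 1829 in Jam3-null cells, against 86.9 in WT cells, 22.5-fold, or 14.2-fold after normexp correction. The log2 differences of these 2 probes were 0.0079 apart.

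The remaining Mgll probe, at chr6:88716583-88716642, was designed on another transcript variant and had a signal of 12.8 in Jam3-null cells, against 3.33 in WT cells, neither well above background. The higher Mgll signal was thus seen on the 2 probes of the RefSeq transcript used for the design, and the variant gave no measured value. In the set of 3 lipases, the enzyme of the last step was far higher at Jam3-null, that of the middle step was under 2-fold higher and that of the first step was on the low side.

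Probes of a member kept 1 direction. Of the 27 probes, 21 were well above background on both arrays, 2 on the Jam3-null array alone, 1 on the WT array alone and 3 on neither. Of the 21, 15 were higher on the Jam3-null array and 6 lower. At least 2-fold higher were 11, and 0 were at least 2-fold lower. Of the measured Lpin2 probes, only the brightest stayed past 2-fold after normexp correction. In 7 members several probes were measured, and in 0 of these did the signs differ, beside 25.1% of the 5177 such genes of the whole array. Because the members were chosen with their differences in view, nothing is read from this share. The log2 differences of a member's probes lay within 0.0079 to 0.69 of each other, with a median range of 0.24, beside 0.30 over all genes. Probes of 1 gene share the RNA on an array and are not replicates of the genotype.

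**Figure D2:**
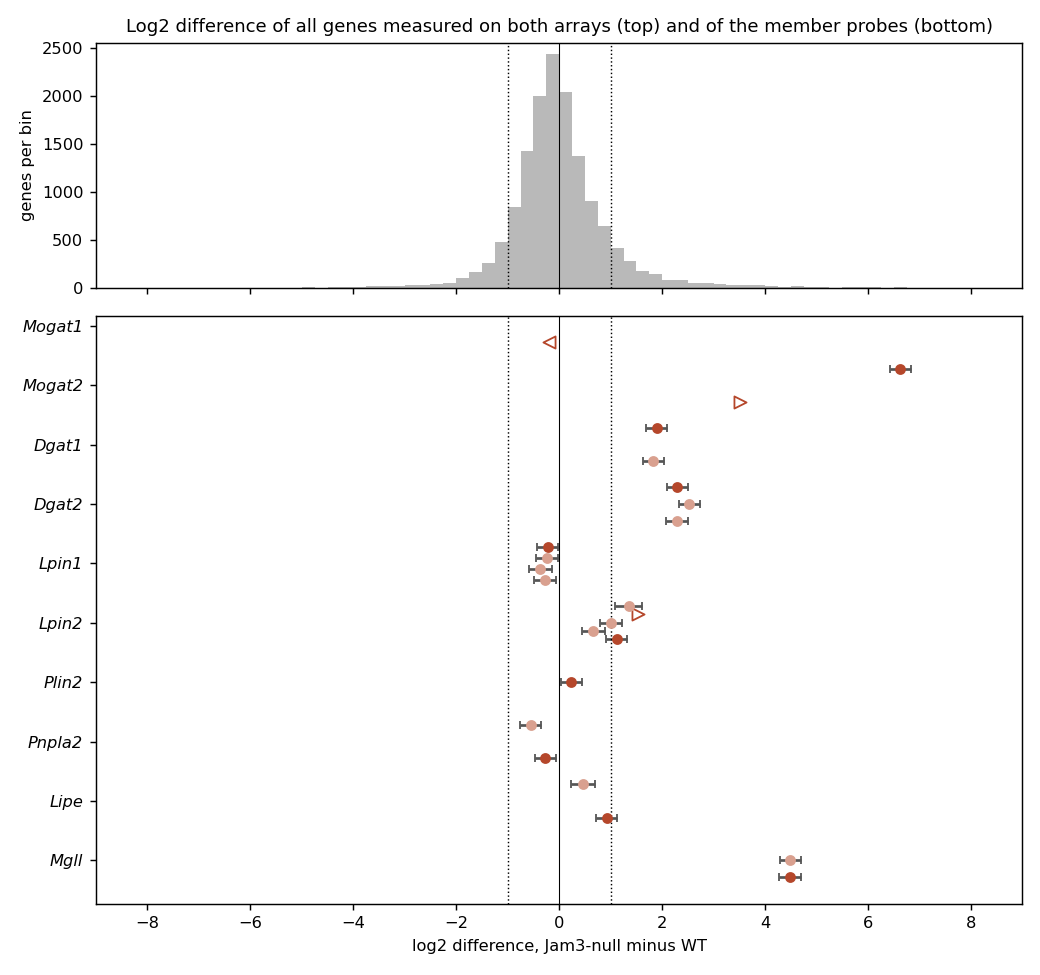
Log2 difference (Jam3-null minus WT) of all 14361 genes measured, as a histogram (top), and of the member probes (bottom), with dark points for the probe that represents the gene, pale points for its other measured probes, bars for the error-model SD and open triangles for bounds. Dotted lines mark 2-fold. Mogat2 (6.62) and Mgll (4.48) lie far out in the right tail of the histogram, whereas Plin2 (0.23), Lpin1 (-0.23) and Pnpla2 (-0.27) lie in its middle.

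Dgat2 and Mogat2 lie on the same strand of chromosome 7, with 65.3 kb between their probes. Of the 12 genes with probes within 500 kb of those of Mogat2, 9 were measured on both arrays, with a median log2 difference of 0.24. At least 2-fold higher on the Jam3-null array were 3 of these neighbours (10.3% of all genes measured) and 0 were at least 2-fold lower (8.59%). Among the 3 was Dgat2, itself a member chosen with its difference in view. Another was Map6, a microtubule-binding protein gene (signal 910 in Jam3-null cells, against 401 in WT cells, log2 1.28). The remaining one was Arrb1, which encodes beta-arrestin 1 (7322 in Jam3-null cells, against 3124 in WT cells, log2 1.33).

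The other measured neighbours lay within 2-fold. Wnt11, a Wnt ligand gene, was at 0.15, Uvrag, an autophagy gene, at 0.24 and Gdpd5, a glycerophosphodiester phosphodiesterase gene, at 0.45. On the low side were Klhl35 (-0.74), the ribosomal protein gene Rps3 (-0.13) and Tpbgl (-0.75). No neighbour came near the 6.62 of Mogat2. Around Mgll, 14 genes had probes within 500 kb. Of the 7 measured, 0 were higher by 2-fold or more (10.3% of all genes measured) and 1 lower by as much (8.59%), with a median of -0.05. The lower one, named after its value was seen, was the helicase gene Ruvbl1 (-1.03).

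**Figure D3:**
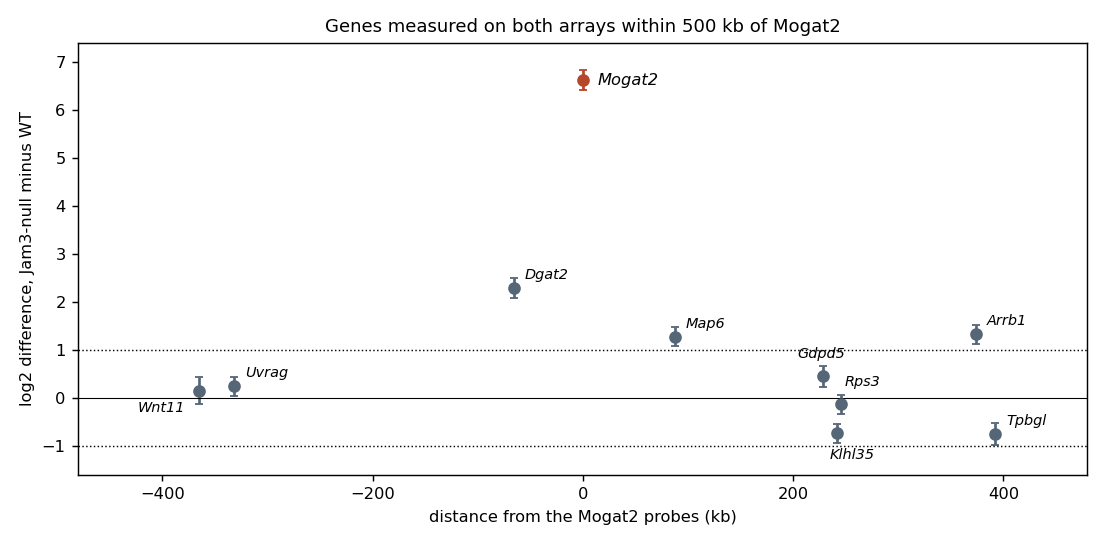
Log2 difference (Jam3-null minus WT) of Mogat2 and of the 9 genes measured on both arrays within 500 kb of it, against their distance from the Mogat2 probes in kb, with bars for the error-model SD and dotted lines at 2-fold. Mogat2 stands at 6.62, Dgat2, 65.3 kb away, at 2.30, Arrb1 at 1.33 and Map6 at 1.28, and the other genes lie between -0.75 and 0.45.

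The genes around these steps were described by lists chosen with earlier results of these arrays known, each set beside the median of -0.07 and the shares of 10.3% and 8.59% of all genes. The glycerolipid synthesis list held the acyltransferases and glycerol enzymes that lead to phosphatidic acid, with Lpin3, regulators of the lipin step and the acyltransferase gene Tmem68. Of its 18 genes, 16 were measured, 0 were higher by 2-fold or more and 2 lower by as much, with a median of -0.12 (0.039 under cyclic loess). Agpat3, a lysophosphatidic acid acyltransferase gene, had a signal of 419 in Jam3-null cells, against 1036 in WT cells (log2 -1.21). Its dimmer probe lay the other way at 0.21, and the mean of both was -0.50. Gk, the glycerol kinase gene, was at -1.10, or -0.75 after normexp correction, and its other measured probes were at -0.71 and -0.38. Agpat2, an acyltransferase gene needed for fat storage, was at 0.97, or 1.06 after cyclic loess scaling.

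The droplet proteins went both ways. Of 17 on the array, 12 were measured, 3 were higher by 2-fold or more and 1 lower by as much, with a median of 0.10. Plin3, a perilipin found on new droplets, had a signal of 17751 in Jam3-null cells, against 6763 in WT cells (log2 1.49). Plin5, the perilipin of oxidative tissues, had 183 in Jam3-null cells, against 26.7 in WT cells, 7.33-fold, with a log2 difference of 2.87, or 1.58 after normexp correction. Cideb, a droplet fusion protein gene, had 186 in Jam3-null cells, against 47.0 in WT cells, 4.22-fold, with a log2 difference of 2.08, or 1.26 after normexp correction.

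The droplet gene on the low side, named after its value was seen, was Hilpda, an inhibitor of ATGL. It was at -1.04, and under 2-fold after cyclic loess scaling and in the authors' value table. Cidea was at least 11.1-fold higher (at least 3.46-fold after normexp correction) and Fitm1 at least 6.52-fold (at least 2.48-fold), both seen on the Jam3-null array alone. Plin1, the perilipin of fat cells, did not clear background on either array.

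Partners of lipolysis included genes far up the order. Of 15 on the array, 8 were measured, 5 were higher by 2-fold or more and 0 lower by as much, with a median of 1.73. With no filter on dim probes 7 were higher, 2 lower and the median was 0.83, and after normexp correction the median was 1.39. G0s2, the main inhibitor of ATGL, had a signal of 1438 in Jam3-null cells, against 108 in WT cells, 14.2-fold, or 9.06-fold after normexp correction. Abhd5, the activator of ATGL, had 2106 in Jam3-null cells, against 440 in WT cells (log2 2.35), so that both the inhibitor and the activator of the lipase were higher while Pnpla2 itself was not. Lpl, the lipase that works outside the cell on circulating triglyceride, had 451 in Jam3-null cells, against 57.4 in WT cells, 8.40-fold, or 4.66-fold after normexp correction. The other genes called here, named after their values were seen, were Daglb, a diacylglycerol lipase gene, at 1.87 (1.07 as the mean of its 2 probes), and Fabp4, a fatty acid carrier gene, at 1.59 (0.97 after normexp correction).

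Among lipolysis genes seen on 1 array alone, Ces1d, a carboxylesterase with triglyceride hydrolase activity, had the largest bound. Its signal was 625 in Jam3-null cells, against 3.35 in WT cells, at least 43.3-fold higher, or at least 10.8-fold after normexp correction. Lipg, the endothelial lipase gene, was at least 2.82-fold higher (at least 1.58-fold after normexp correction). Abhd6, another monoacylglycerol hydrolase, had a signal of 9.42 in Jam3-null cells, against 73.5 in WT cells. It was at least 2.66-fold lower in Jam3-null cells (at least 1.51-fold after normexp correction), opposite to Mgll.

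Fatty acid uptake and activation supply the acyl chains. Of 14 genes, 7 were measured, 0 were higher by 2-fold or more and 1 lower by as much, with a median of -0.63 (-0.38 after normexp correction). Slc27a1, a fatty acid transport protein gene, had a signal of 795 in Jam3-null cells, against 3890 in WT cells (log2 -2.19), with both probes lower. Slc27a3, of the same family, was at -0.82 and Acsl3, an acyl-CoA synthetase gene linked to droplet formation, at -0.67. Slc27a6 was seen on the Jam3-null array alone, at least 18.1-fold higher, or at least 4.34-fold after normexp correction. It was the only gene of the list seen there alone, while 4 were seen on the WT array alone and 2 on neither.

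Fatty acid oxidation was measured completely, in 19 of 19 genes, with 0 at least 2-fold higher, 1 at least 2-fold lower and a median of -0.18. Decr1, a mitochondrial dienoyl-CoA reductase gene, was at -1.21, with low signals of 45.6 in Jam3-null cells, against 113 in WT cells, and at -0.67 after normexp correction. Hadh was at -0.89 and Hadhb at -0.72, both genes of the beta-oxidation cycle. Of the sterol ester genes, 3 of 5 were measured, with 0 past 2-fold in either direction. Nceh1, a cholesteryl ester hydrolase gene, was at 0.85 and Soat1, which makes cholesteryl esters, at 0.56, or 1.06 as the mean of its 3 probes, while Cel was at -0.03 and at 0.04 after normexp correction.

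The phospholipid branch competes for phosphatidic acid and diacylglycerol. Of 21 genes, 20 were measured, 4 were higher by 2-fold or more and 1 lower by as much, with a median of 0.25. Cds2, which makes CDP-diacylglycerol, had a signal of 12887 in Jam3-null cells, against 4878 in WT cells (2.82-fold, or 0.88 in log2 as the mean of its 5 probes, of which 1 lay on the low side at -0.02). Dgkg, a diacylglycerol kinase gene, was at 1.35 and Cept1, a choline and ethanolamine phosphotransferase gene, at 1.27. The other calls, named after their values were seen, were the diacylglycerol kinase genes Dgka (1.09) and Dgkh (-1.21). Pcyt1b was seen on the Jam3-null array alone, with a log2 bound of at least 3.42, or 1.79 after normexp correction, while of its other probes 1 was well above background on the WT array alone and 1 on neither.

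Transcription regulators of lipid genes went both ways. Of 15, 12 were measured, 4 were higher by 2-fold or more and 2 lower by as much, with a median of -0.02. Rxra, the partner of the PPAR and LXR receptors, had a signal of 2050 in Jam3-null cells, against 270.2 in WT cells (log2 3.02). Mlxipl, which encodes ChREBP, was dim, with 74.4 in Jam3-null cells, against 20.01 in WT cells, 3.98-fold, or 1.75-fold after normexp correction. Ppargc1b, a coactivator of oxidative metabolism, had 150 in Jam3-null cells, against 1874 in WT cells (log2 -3.55), with all its measured probes lower. Pparg, the receptor that drives fat cell genes and named after its value was seen, was at -1.65. The other genes called higher, likewise named, were Cebpb, a myeloid and fat cell factor, at 1.80 and Nr1h3, which encodes LXR alpha, at 1.19, or 0.52 after normexp correction.

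**Figure D4:**
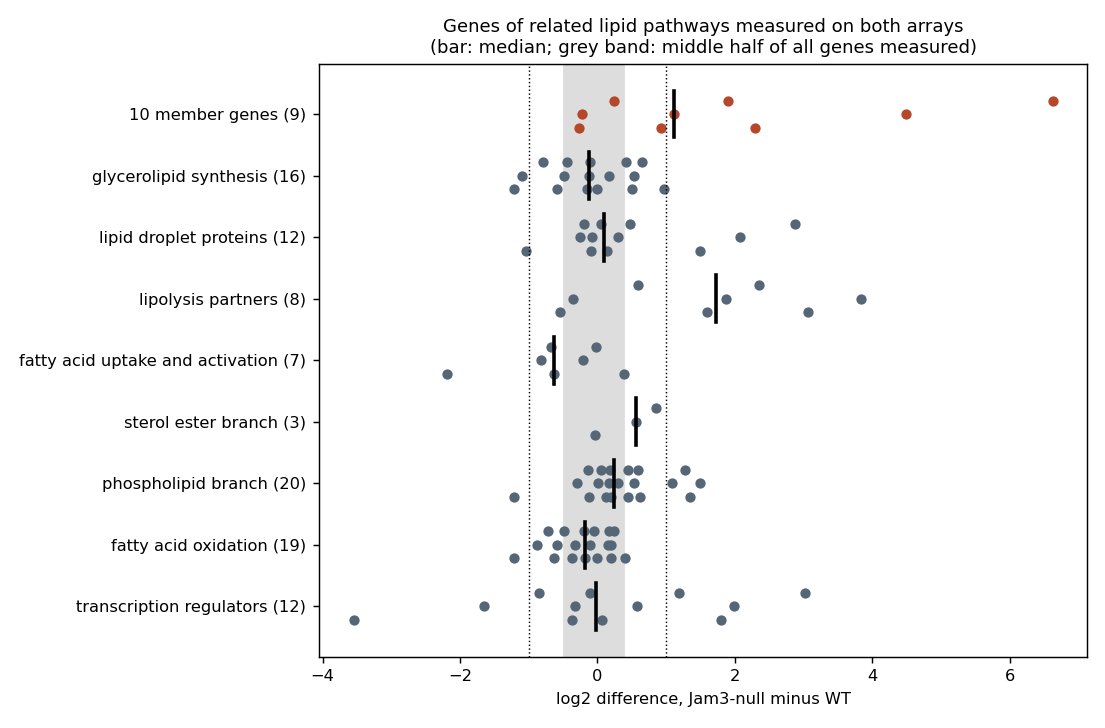
Log2 difference (Jam3-null minus WT) of each measured gene in the member group (top) and in 8 lists of related lipid genes, with the number measured in brackets, black bars for the median, a grey band between the quartiles of all genes measured and dotted lines at 2-fold. The medians of the members (1.11) and of the lipolysis partners (1.73, or 0.83 with no filter on dim probes) lie past 2-fold, and those of the other lists lie between -0.63 and 0.56.

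The lists of other cell types differed between the arrays too. They were also chosen with earlier results of these arrays known. Beside their counts stand the shares of all genes measured, 10.3% higher and 8.59% lower by 2-fold or more. Of the neutrophil markers, 12 of 12 were at least 2-fold higher on the Jam3-null array, with a median log2 difference of 3.80 (range 1.56 to 6.63). Their summed signal was 1031010 in Jam3-null cells, against 177825 in WT cells. Of 11 measured monocyte and macrophage markers, 5 were higher by 2-fold or more and 1 lower by as much, with a median of 0.99. Their summed signal of 195716 in Jam3-null cells, against 270521 in WT cells, was mostly that of Ly6c2 (169410 in Jam3-null cells, against 237295 in WT cells). Of the markers of mast cells, basophils and eosinophils, 6 of 6 measured were at least 2-fold lower, with a summed signal of 5926 in Jam3-null cells, against 34321 in WT cells. After normexp correction, Epx of this list was under 2-fold (log2 -0.97). Of 7 measured dendritic cell markers, 0 were higher by 2-fold or more and 3 lower by as much, with a summed signal of 1597 in Jam3-null cells, against 6325 in WT cells. Itgax, 1 of the 3, was under 2-fold after normexp correction (log2 -0.65). Whether leukaemia cells or other cells carried these markers was not tested. The part of such cells in the differences of Mogat2, Mgll and the DGAT genes was not tested either.

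Markers of the 2 cell types best known for this pathway were mostly dim or not well above background. Of 8 adipocyte markers, 6 were not well above background on either array, among them Adipoq, Plin1, Cidec and Lep. The exceptions were Fabp4, with a signal of 183 in Jam3-null cells, against 65.0 in WT cells, and Cfd, seen on the Jam3-null array alone. Cfd had 368 in Jam3-null cells, against 14.6 in WT cells. It was at least 25.5-fold higher, or at least 6.03-fold after normexp correction. Fabp4 also stands in the lipolysis list, and Plin1 and Cidec in the droplet list. Of 10 enterocyte markers, 5 were measured, and no signal of the list passed 87.9 on the Jam3-null array or 125 on the WT array. Apoa4, Apob, Mttp and Apoa1 were not well above background on either array.

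Promoter sequences from RefSeq (GRCm38.p6, another build than the probe coordinates) were found for 7 of the 10 members, in 11 windows that run from 250 bases before to 50 bases after a start. The upstream part of the first Mgll window is shown because Mgll had the larger of the 2 differences past 2-fold among members with a window, with its E-box CACGTG in capitals, 44 bases before the start.
Mgll, chr6:88724162-88724411 (+): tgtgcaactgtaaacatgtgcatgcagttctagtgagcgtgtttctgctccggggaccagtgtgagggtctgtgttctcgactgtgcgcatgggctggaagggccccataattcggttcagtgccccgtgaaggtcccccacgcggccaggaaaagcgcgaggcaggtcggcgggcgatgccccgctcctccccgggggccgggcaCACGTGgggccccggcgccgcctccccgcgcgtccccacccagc

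On both strands, CACGTG was found in 4 of the 11 windows, 1 each of Plin2, Mgll, Lipe and Lpin2, and in 7.15% of all 32851 windows of this length. These 4 windows had a GC content between 60.7% and 70%, beside a median of 52.7% over all windows. The part of GC content in the motif counts was not tested. The GC box CCGCCC was found in 7 of 11 windows (35.7% of all windows) and the nuclear receptor motif AGGTCA in 2 (16.3%), those of Plin2 and Lpin1. The PU.1 core GAGGAA was in 3 windows (28.3% of all), the C/EBP motif TTNNGNAA in 1 (40.7%) and TATAAA in 0 (13.6%). Windows with the E-box belonged to members past 2-fold (Mgll, Lpin2) and to members within it (Plin2, Lipe). These matches describe letters in a window and no binding was measured.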

How the data were processed

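Total RNA was amplified, labelled with Cy3 and hybridised to 2 arrays, 1 of Jam3-null and 1 of WT cells, per the labels' protocols. Spot intensities were deposited on a linear scale as written by Agilent Feature Extraction 10.7.3.1, background-subtracted and detrended within the array, per the file headers; the submitters' processing notes name version 10.7. They were not normalized between arrays. The authors deposited a value table on a log2 scale, an alternative only: it matched the log2 processed signals (r over probes 0.999 on each array), its medians were 5.66 in both columns and its sorted columns differed by at most 0.00038, so its scale and direction are known and its method is unstated. Flag columns of the scanner software, 0 or 1, were used as deposited by the authors.

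Spots flagged as outliers were left out (151 on the Jam3-null array, 163 on the WT array; 0 of 27 member spots), and 0 were saturated. The log2 signal minus the array's 75th percentile was averaged over spots of a probe, and a gene took its brightest probe. Of 41165 probes kept, 27662 were named by accession and 471 by an older symbol through a RefSeq table of GRCm38.p6, and 13032 kept the name in the file. The dimmest signal counted as well above background was 25.9 for Jam3-null and 15.4 for WT. A bound sets the bright signal against that of the dim array or the probe's own signal there, whichever is higher. The error model gave a median SD of 0.20, and 127 probes in repeat spots gave 0.087. Brightness limits precision, and 2 arrays allow no test between genotypes.

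The members and lists were chosen with earlier results of these data known. Named genes were all members, the 3 largest absolute differences of each list, bounds of at least 2-fold and the measured neighbours of Mogat2 within 500 kb. Of the 3 relatives of Dgat2 listed, 2 were on the array, and neither was well above background. Erythroid and megakaryocyte markers (3 measured, 2 at least 2-fold higher) and lymphoid markers (3 measured, 1 at least 2-fold higher) were also listed, beside 10.3% of all genes. Of the former, Itga2b and Pf4 were seen on the WT array alone, at least 3.75-fold and 2.24-fold lower in Jam3-null cells. After normexp correction these bounds were 1.85-fold and 1.35-fold. Of the lymphoid markers, Cd3d and Klrb1c were seen on the Jam3-null array alone. Alternatives were normexp (offset 50), median, quantile, cyclic loess and spike-in scaling (8 probes), the value table, no filter, brighter genes only, the mean of a gene's probes, flagged spots kept, and thresholds of 1.5-fold and 3-fold. The 2-fold call was tested on simulated shifts, added to the mean of the 2 arrays with noise from the scanner's error model. This noise holds no spread between mice. Scaling, flag removal, probe naming and the alternatives were not tested in this way. Python 3.11.15, numpy 2.4.6, pandas 2.3.3, matplotlib 3.10.9, R 4.3.3 and limma 3.58.1 were used.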

Additional observations from a re-analysis of the deposited data

How the results depend on the processing

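No paired analysis was possible because each genotype has 1 array and the labels carry no replicate numbers, and for the same reason no replicate could be left out. Among 12 alternatives, the number of members past the threshold on the high side was 5, except 4 with brighter genes only, 6 at 1.5-fold and 4 at 3-fold, and it was 0 on the low side in each. Every measured member kept its sign in each alternative that gave it a value. With no filter, brighter genes only or flagged spots kept, a measured member that stays in keeps the same value. The sign was therefore fixed in advance in these settings. Over the alternatives, Mogat2 lay between 6.33 and 6.76, Mgll between 3.93 and 4.55, Dgat2 between 2.21 and 2.46, Dgat1 between 1.81 and 2.003 and Lpin2 between 1.03 and 1.24. Of all genes, 2828 were higher and 2920 lower with no filter on dim probes, 521 and 567 with brighter genes only, 2647 and 2917 at 1.5-fold and 709 and 421 at 3-fold, beside 1473 and 1234. Cyclic loess moved the median of all genes by 0.13, with 64.1% of calls then on the high side (1761 higher, 985 lower), against 54.4%. Spike-in scaling turned the balance, with 46.8% on the high side (1317 higher, 1498 lower). Among values of single genes and lists, 346 stayed within the spread allowed and 47 moved. Medians near 0 changed sign: that of glycerolipid synthesis was 0.039 under cyclic loess, that of the droplet proteins -0.02 with brighter genes only and -0.07 with the mean of probes, and that of the transcription regulators 0.050 under quantile normalization, 0.15 under cyclic loess, 0.081 in the value table and 0.56 with no filter. Normexp correction left 2 of the transcription regulators at least 2-fold higher. The bounds rest on dim signals and were recomputed under normexp correction only.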
